A study of Mus musculus with 11 samples.

Results

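The SUN, nesprin and lamin genes of the mouse nuclear envelope were measured in purified male germ cells of wild type and *Dnmt3L* heterozygous mice. The members were the 10 genes *Sun1*, *Sun2*, *Sun3*, *Spag4*, *Sun5*, *Syne1*, *Syne2*, *Lmna*, *Lmnb1* and *Lmnb2*, found by gene symbol among all probes of the array. They were 10 of the 19406 genes with a probe of 1 symbol, and had 26 of the 46643 probes. Of these, 17 were among the 27986 probes kept after the 40% with the lowest mean level were left out, and each of the 10 genes kept at least 1.

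The nuclear envelope is crossed by the LINC complex, which couples the chromatin and the lamina to the cytoskeleton. SUN proteins span the inner nuclear membrane and bind, between the membranes, the KASH domains of nesprins in the outer membrane. The lamins are intermediate filaments that line the inner membrane. In spermatocytes SUN1 and SUN2 hold the ends of meiotic chromosomes at the envelope, and in spermatids SPAG4 (also called SUN4), SUN3 and SUN5 are known from the reshaping of the nucleus, the manchette and the joint of head and tail. Male germ cells of the mouse are also known to make shortened products of *Lmna* (lamin C2, in spermatocytes) and of *Lmnb2* (lamin B3, in spermatids). Whether a probe reads the shortened or the somatic product was not examined here.

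RNA came from pachytene spermatocytes and round spermatids of C57Bl/6 testes, at 8 to 12 weeks of age, purified by centrifugal elutriation from wild type mice or from mice with 1 *Dnmt3L* knockout allele. In that allele, by the study's methods, a *LacZ* reporter with stop codons was inserted into exon 5. There were 3 arrays of wild type spermatocytes, 2 of heterozygous spermatocytes, 3 of wild type spermatids and 3 of heterozygous spermatids, each from the pooled cells of 10 mice, and a further heterozygous spermatocyte preparation named in the methods was not analysed here. The spermatocyte preparations were hybridised to 1 Illumina BeadChip and the spermatid preparations to another, so chip and cell type cannot be told apart, and in whole fractions fewer cells of a type and less RNA per cell cannot be told apart either.

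All values were log2 expression values after quantile normalisation, with a median of 6.87 and a range of 6.40 to 13.99 on every array. Within a group the arrays correlated at 0.961 to 0.994 over all 46643 probes. The spermatid arrays numbered 2 lay closest to the spermatocytes (0.953 for the wild type and 0.960 for the heterozygous array, against 0.886 to 0.917 for the other spermatid arrays). The mean of 13 round spermatid markers was 9.62 to 10.54 in spermatocytes and 11.52 to 12.05 in spermatids, with 10 of the markers called higher in the wild type and 7 in heterozygous cells, *Acrv1* and *Capza3* in both. Of 14 pachytene markers only 5 had a kept probe, *Sycp1* and *Hormad1* not among them, and their mean was 8.46 to 8.69 in spermatocytes and 7.78 to 8.31 in spermatids, with a median difference of -0.015 in the wild type and 1 call, *Piwil2*, which was lower. The *Dnmt3l* probe lies, as the study states, downstream of the insertion in an exon that all transcripts share, and cannot check the genotype. It was 0.56 higher in heterozygous spermatocytes (limma adjusted p = 0.374) and 0.15 lower in heterozygous spermatids (adjusted p = 0.868).

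The largest differences between the cell types were those of *Spag4*, *Sun5* and *Lmnb2*, which rose, and *Sun1* fell in the wild type. Their promoters are shown as those of the largest rises and of the largest fall in the wild type. The *Sun1* call was close to its threshold, and *Sun2*, whose promoter is not shown, differed by -0.80 in heterozygotes. Each is 250 bases before to 50 after a RefSeq transcription start, in GRCm38.p6, on the strand of the gene: *Spag4* at chr2:156064963-156065262 (plus strand), *Sun5* at chr2:153871035-153871334 (minus strand), *Lmnb2* at chr10:80918196-80918495 (minus strand) and *Sun1* at chr5:139200387-139200686 (plus strand). *Lmnb2* and *Sun1* each have 2 starts in the table, of which the first is shown. Capitals mark the cAMP response element (CRE, TGACGTCA) and its half-site (TGACG), searched on both strands, and the CRE, being a palindrome, holds 2 half-site matches of its own.
Spag4: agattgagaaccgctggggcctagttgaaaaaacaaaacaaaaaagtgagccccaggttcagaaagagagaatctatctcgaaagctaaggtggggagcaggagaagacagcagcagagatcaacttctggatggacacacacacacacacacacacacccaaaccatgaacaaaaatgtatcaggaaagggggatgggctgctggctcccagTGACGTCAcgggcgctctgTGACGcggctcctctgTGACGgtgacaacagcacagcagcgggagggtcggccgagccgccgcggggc
Sun5: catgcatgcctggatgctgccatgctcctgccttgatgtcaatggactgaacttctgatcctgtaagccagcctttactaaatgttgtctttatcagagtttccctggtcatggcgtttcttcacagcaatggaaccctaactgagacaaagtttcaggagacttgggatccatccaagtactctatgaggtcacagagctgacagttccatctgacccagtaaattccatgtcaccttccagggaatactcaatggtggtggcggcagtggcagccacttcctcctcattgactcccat
Lmnb2: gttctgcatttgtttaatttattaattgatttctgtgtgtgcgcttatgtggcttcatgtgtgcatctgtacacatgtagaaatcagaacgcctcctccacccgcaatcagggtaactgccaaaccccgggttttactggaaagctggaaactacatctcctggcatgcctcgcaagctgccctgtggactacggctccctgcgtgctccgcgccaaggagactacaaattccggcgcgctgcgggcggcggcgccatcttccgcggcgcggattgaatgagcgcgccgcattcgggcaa
Sun1: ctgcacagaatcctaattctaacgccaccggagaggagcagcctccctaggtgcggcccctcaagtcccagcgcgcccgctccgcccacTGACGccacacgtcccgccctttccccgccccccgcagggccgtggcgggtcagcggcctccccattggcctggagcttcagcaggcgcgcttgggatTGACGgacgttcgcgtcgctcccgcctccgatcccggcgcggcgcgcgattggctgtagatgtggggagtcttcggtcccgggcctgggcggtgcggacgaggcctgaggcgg

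The CRE is bound by CREM, an activator of many spermatid genes. *Spag4* held the full element at position -37 from the start, and further half-sites at -18 and -2. Among the 15 promoters searched for 9 of the 10 members, this was the only CRE, and 588 of all 32851 promoters (1.79%) held one. *Lmnb1* was left out of this search, so the count does not cover it. The first *Sun1* promoter held half-sites at -161 and -63, and 20.8% of all promoters held at least 1 half-site. The letters TATAAA were present in the second promoter of *Sun1* and in the second of *Syne1*, and in 13.6% of all promoters. A match is a description of these letters and not of binding, which was not measured.

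*Spag4*, the first of the SUN genes that rise after meiosis, was read by 3 probes, and all 3 rose in wild type spermatids. On probe 107040575 the 3 wild type spermatocyte arrays read 11.26, 11.11 and 11.11, the 2 heterozygous spermatocyte arrays 11.81 and 11.52, the wild type spermatids 12.96, 13.24 and 13.27, and the heterozygous spermatids 13.24, 13.20 and 13.08. Every spermatid array was above every spermatocyte array, and the 2 heterozygous spermatocyte arrays were above the 3 wild type ones. The difference of wild type spermatids from spermatocytes was 2.00 (SE 0.11, a 3.99-fold change, limma adjusted p = 8.57e-05), and in heterozygous cells it was 1.51 (SE 0.12, 2.85-fold, adjusted p = 0.000361).

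On *Spag4* probe 360128 the wild type spermatocytes read 8.84, 8.36 and 8.76, the heterozygous spermatocytes 8.86 and 8.86, the wild type spermatids 11.63, 10.67 and 11.46, and the heterozygous spermatids 11.67, 10.54 and 11.71. The cell types did not overlap, and in both genotypes the spermatid array numbered 2 was about 1 log2 unit below the other spermatid arrays. The difference was 2.60 in the wild type (SE 0.34, limma adjusted p = 0.00279) and 2.45 in the heterozygotes (SE 0.38, adjusted p = 0.00539). The dimmest probe, 2680373, lay between 6.71 and 7.08 in spermatocytes and between 7.33 and 7.91 in spermatids, with differences of 0.93 (SE 0.16, adjusted p = 0.00887) and 0.79 (SE 0.18, adjusted p = 0.0256). The heterozygous call of this probe was lost without heterozygous spermatocyte array 1 (adjusted p = 0.0517) or 2 (adjusted p = 0.174), or heterozygous spermatid array 1 (adjusted p = 0.0672) or 3 (adjusted p = 0.0668). The 3 probes correlated at 0.91 to 0.98 over the 11 arrays, while their differences between the cell types ran from 0.93 to 2.60.

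*Sun5*, which anchors the sperm tail to the head, had the largest difference of the 17 probes in the wild type. Its values were 9.21, 8.79 and 9.07 in wild type spermatocytes, 9.70 and 9.46 in heterozygous spermatocytes, 12.03, 11.60 and 12.16 in wild type spermatids, and 11.87, 11.40 and 12.15 in heterozygous spermatids. The lowest spermatid array was above the highest spermatocyte array, and the spermatid array numbered 2 was the lowest of its group in both genotypes. *Sun5* rose by 2.91 in the wild type (SE 0.21, 7.50-fold, limma adjusted p = 0.000246) and by 2.22 in the heterozygotes (SE 0.24, 4.66-fold, adjusted p = 0.00129).

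*Sun3*, a SUN protein of the spermatid manchette, differed less between the cell types. It read 8.64, 8.96 and 9.22 in wild type spermatocytes, 9.04 and 8.82 in heterozygous spermatocytes, 9.57, 9.20 and 9.53 in wild type spermatids, and 9.45, 8.81 and 9.53 in heterozygous spermatids. The cell types overlapped in both genotypes, through the spermatid arrays numbered 2. The difference was 0.49 in the wild type (95% interval 0.0092 to 0.98, limma adjusted p = 0.214) and 0.34 in the heterozygotes (interval -0.20 to 0.88, adjusted p = 0.515), neither of them called. Without both spermatid arrays numbered 2 the wild type difference was 0.61 (adjusted p = 0.0355).

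**Figure D1:**
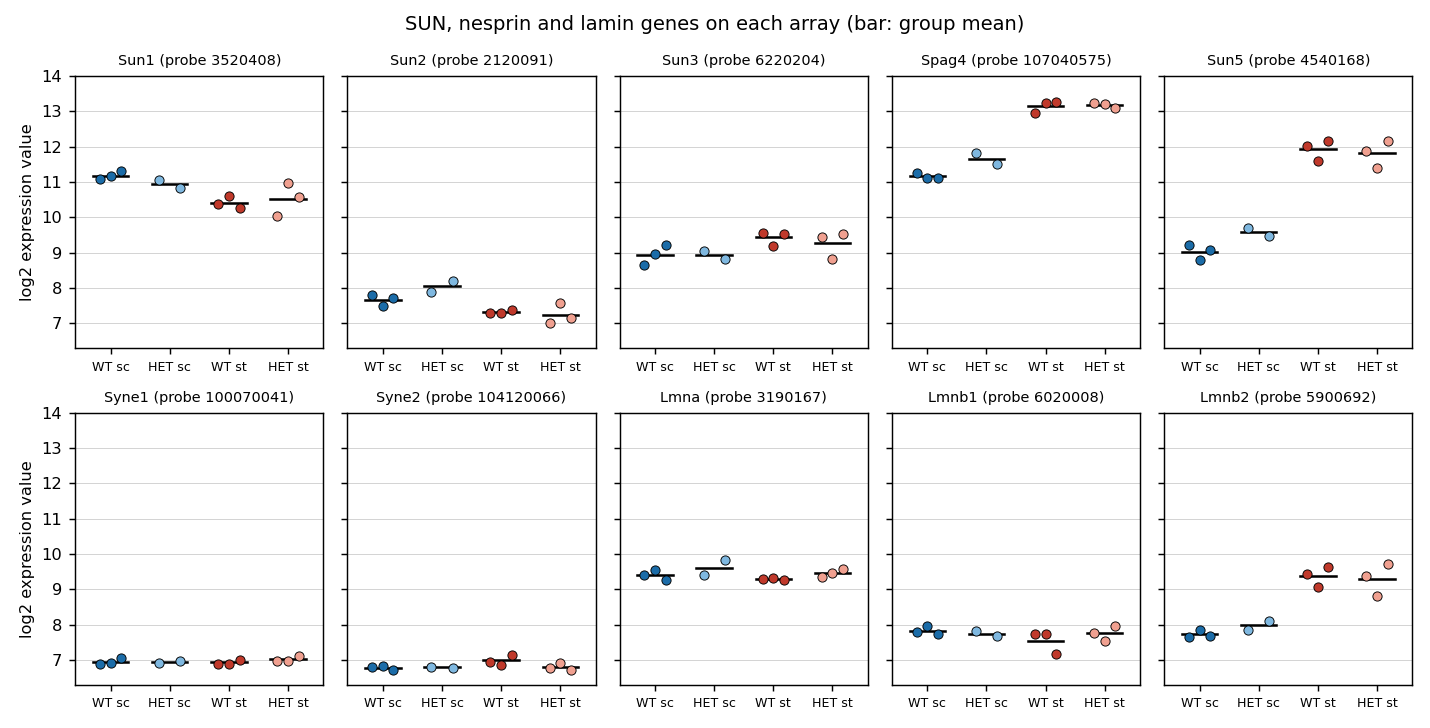
Log2 expression value (vertical axis) of the highest-mean kept probe of each of the 10 genes on each of the 11 arrays, by group (WT, wild type; HET, heterozygous; sc, spermatocytes; st, spermatids; bar, group mean). *Spag4*, *Sun5* and *Lmnb2* lie higher in spermatids in both genotypes, *Syne1* and *Syne2* lie close to 7 on all arrays, and *Sun1* lies lower in wild type spermatids.

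*Sun1*, the SUN protein that carries telomere attachment in meiosis, ran the other way. It read 11.08, 11.15 and 11.30 in wild type spermatocytes, 11.06 and 10.83 in heterozygous spermatocytes, 10.37, 10.61 and 10.26 in wild type spermatids, and 10.03, 10.97 and 10.57 in heterozygous spermatids. The wild type groups did not overlap, whereas heterozygous spermatid array 2 lay between the 2 heterozygous spermatocyte arrays. *Sun1* fell by 0.77 in wild type spermatids (SE 0.21, limma adjusted p = 0.0479), and the heterozygous difference was -0.42 (SE 0.23, adjusted p = 0.371). The wild type call was close to its threshold: the adjusted p was 0.0501 to 0.14 without any 1 of 9 arrays (the exceptions being heterozygous spermatid arrays 1 and 2), and without both spermatid arrays numbered 2 the heterozygous difference was -0.64 (adjusted p = 0.0456). A second *Sun1* probe, 1450632, was left out as dim, with values of 6.54 to 6.73.

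*Sun2*, the other SUN protein of the meiotic and somatic envelope, was lower in spermatids of both genotypes, with a call in the heterozygotes alone. It read 7.81, 7.48 and 7.71 in wild type spermatocytes, 7.88 and 8.21 in heterozygous spermatocytes, 7.29, 7.28 and 7.37 in wild type spermatids, and 7.0, 7.58 and 7.14 in heterozygous spermatids. The cell types did not overlap within either genotype. *Sun2* fell by 0.80 in heterozygous spermatids (SE 0.17, limma adjusted p = 0.0193), and the wild type difference was -0.35 (SE 0.15, adjusted p = 0.219). The heterozygous call was lost without heterozygous spermatocyte array 2 (adjusted p = 0.138) and without heterozygous spermatid array 3 (adjusted p = 0.0515).

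Of the lamins, *Lmnb2* rose. Probe 5900692 read 7.67, 7.84 and 7.67 in wild type spermatocytes, 7.86 and 8.10 in heterozygous spermatocytes, 9.44, 9.06 and 9.62 in wild type spermatids, and 9.38, 8.82 and 9.71 in heterozygous spermatids. The cell types did not overlap, and the spermatid arrays numbered 2 were again the lowest of their groups. The difference was 1.65 in the wild type (SE 0.22, 3.14-fold, limma adjusted p = 0.00279) and 1.32 in the heterozygotes (SE 0.24, 2.50-fold, adjusted p = 0.0103, or 0.07 without heterozygous spermatocyte array 1). The other *Lmnb2* probe, 106840066, had values of 6.72 to 6.85 and was left out as dim.

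*Lmna*, the A-type lamin gene, had 5 kept probes, and their differences between the wild type cell types were between -0.31 and -0.0048. Probe 4210020 read 9.0, 8.82 and 8.99 in wild type spermatocytes, 8.92 and 9.04 in heterozygous spermatocytes, 8.54, 8.70 and 8.65 in wild type spermatids, and 8.82, 8.63 and 8.83 in heterozygous spermatids. It fell by 0.31 in wild type spermatids (SE 0.080, limma adjusted p = 0.0400), the only *Lmna* probe called, and the groups did not overlap. The adjusted p was 0.0537 to 0.138 without any 1 of 8 arrays (the exceptions being wild type spermatocyte array 2 and the spermatid arrays numbered 2), and a further cyclic loess normalisation moved the difference to -0.13 (adjusted p = 0.482).

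The brightest *Lmna* probe, 3190167, read 9.28 to 9.56 in wild type spermatocytes, 9.40 and 9.83 in heterozygous spermatocytes, 9.27 to 9.33 in wild type spermatids and 9.35 to 9.58 in heterozygous spermatids, and its cell types overlapped within each genotype. Its wild type difference was -0.12 (limma adjusted p = 0.688), and those of *Lmna* probes 1500075, 520471 and 105050546 were -0.28 (adjusted p = 0.150), -0.19 (adjusted p = 0.475) and -0.0048 (adjusted p = 0.985). Without wild type spermatocyte array 2, probe 1500075 reached -0.39 (adjusted p = 0.0420). The *Lmna* probes correlated with each other at -0.21 to 0.84 over the arrays, so they did not move as one.

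*Lmnb1*, the B-type lamin present in most somatic cells, had 2 kept probes and no call. Probe 6020008 read 7.78, 7.95 and 7.75 in wild type spermatocytes, 7.81 and 7.67 in heterozygous spermatocytes, 7.73, 7.74 and 7.16 in wild type spermatids, and 7.76, 7.53 and 7.97 in heterozygous spermatids. Its wild type difference of -0.28 (SE 0.17, limma adjusted p = 0.405) rested in part on wild type spermatid array 3, the lowest of the 11. *Lmnb1* probe 5890292 lay between 6.72 and 7.04 on all arrays.

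The nesprin genes *Syne1* and *Syne2*, whose giant products reach from the nucleus to actin and microtubules, were dim. Their kept probes were near the array's median level, not far above the lowest kept mean of 6.802. *Syne1* kept 1 of 3 probes (100070041), with values of 6.89 to 7.12, and *Syne2* kept 1 of 6 (104120066), with values of 6.71 to 7.16. *Syne1* differed between the wild type cell types by -0.02 (95% interval -0.18 to 0.14, limma adjusted p = 0.936) and *Syne2* by 0.20 (interval 0.018 to 0.39, adjusted p = 0.177). In total 9 member probes were left out as dim, 1 of *Sun1*, 2 of *Syne1*, 5 of *Syne2* and 1 of *Lmnb2*, with values between 6.54 and 6.85. All of these values lie below the array's median of 6.87. From negative controls, the study took about 40% of probes as not expressed in each sample, and filtered out the dimmest 40%.

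Counted over the 17 kept probes, 5 were called higher in wild type spermatids, against 11.5% of all kept probes, and 2 were called lower, against 15.5%. The 5 were the 3 *Spag4* probes, *Sun5* and *Lmnb2*, and so stand for 3 genes. The groups did not overlap for 11 of the 17, and for 52.1% of all kept probes. The median difference of the members was -0.020 and that of all kept probes -0.034. In heterozygous cells 5 were called higher, against 8.65% of all, and 1 (*Sun2*) lower, against 9.15%, with a median of 0.014 for the members and -0.023 for all. The 5 called higher were the same probes in both genotypes.

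**Figure D2:**
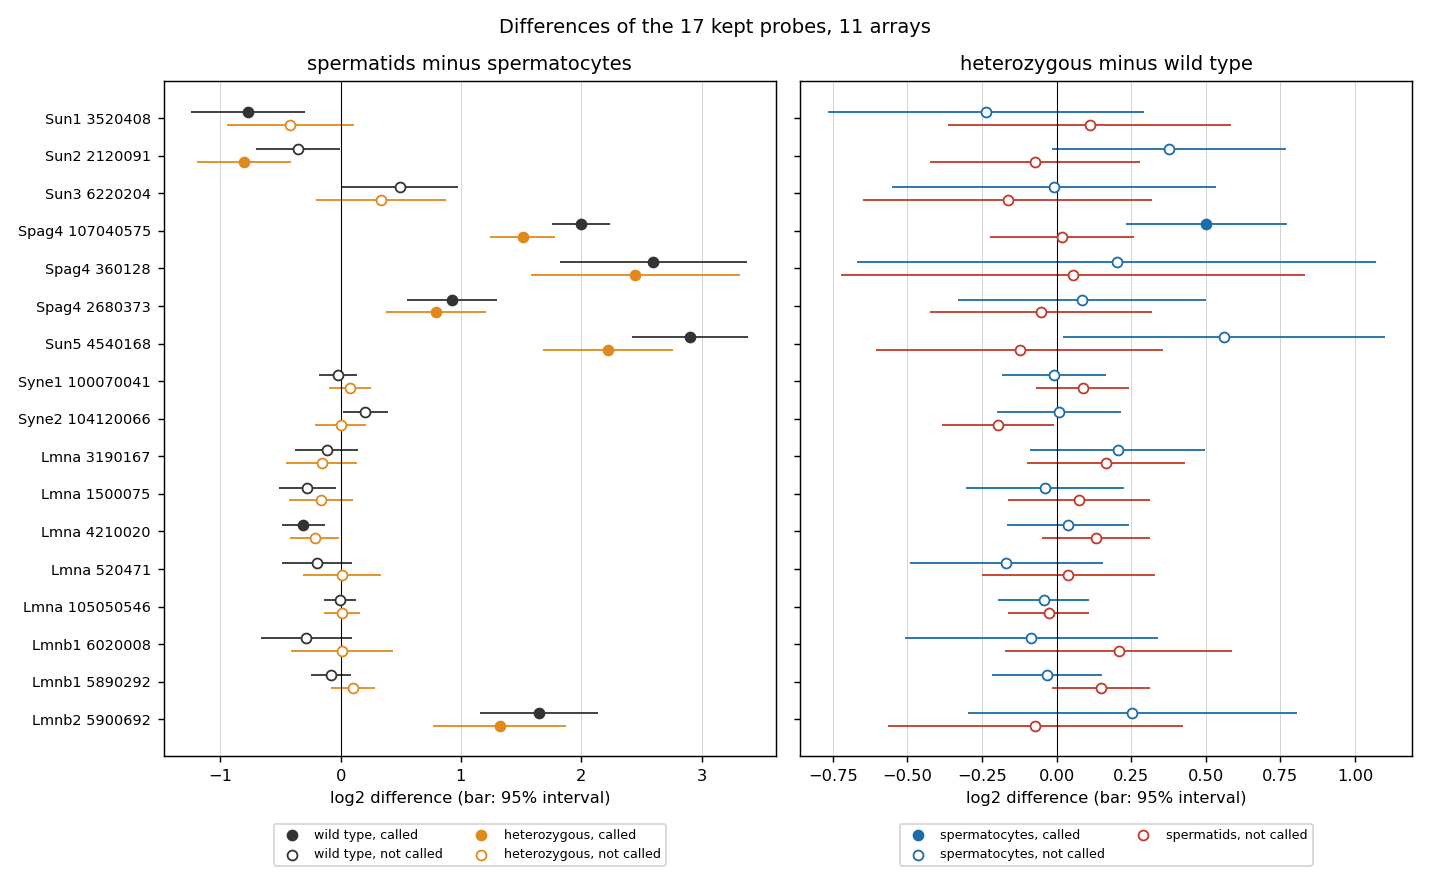
Log2 difference with its 95% interval for each of the 17 kept probes (rows, gene and probe number), between spermatids and spermatocytes within each genotype (left) and between heterozygous and wild type within each cell type (right); filled points have a limma adjusted p under 0.05. On the left the *Spag4*, *Sun5* and *Lmnb2* intervals lie above 0 in both genotypes, and on the right 1 filled point is seen, *Spag4* probe 107040575 in spermatocytes.

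Markers of some other cell types also differed between the fractions, while those of others had few calls or none. The mean of 6 measured macrophage and blood markers was 6.96 to 7.21 in spermatocytes and 8.65 to 10.24 in spermatids, and all 6 were called higher in wild type spermatids and 4 in heterozygous ones, *Hba-a1* and *Lyz2* in both, while the other 6 of the list, with *Adgre1*, *Csf1r* and *Ptprc*, had no kept probe. The mean of 6 of 9 peritubular markers was 7.52 to 7.71 in spermatocytes and 8.65 to 9.48 in spermatids, with 3 called higher in the wild type. The mean of 10 spermatogonium markers was 7.49 to 7.60 in spermatocytes and 7.63 to 7.94 in spermatids, with 4 called higher and 1 lower in the wild type and 1 higher in heterozygous cells. The mean of 9 Leydig cell markers was 7.30 to 8.86 and 7.67 to 9.79, with 1 called lower in each genotype, and that of 7 endothelial markers 7.15 to 7.37 and 7.28 to 7.73, with 1 called higher in the wild type. The mean of 12 Sertoli cell markers was 7.80 to 9.12 in spermatocytes and 7.94 to 9.34 in spermatids, with none called. The part of these cells in the levels of the widely expressed members *Lmna*, *Lmnb1*, *Lmnb2*, *Sun1* and *Sun2* was not tested.

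The second question of the design was whether the loss of 1 *Dnmt3L* allele changed these genes within a cell type. In spermatocytes 1 of the 17 probes was called, against 0.186% of all kept probes. This was *Spag4* probe 107040575, which was higher in heterozygotes by 0.50 (95% interval 0.23 to 0.77, 1.42-fold, limma adjusted p = 0.0283). The call was lost without heterozygous spermatocyte array 1 (0.36, adjusted p = 0.199), wild type spermatocyte array 2 (0.48, adjusted p = 0.0839) or wild type spermatocyte array 3 (0.48, adjusted p = 0.0802). It was also lost when p-values were adjusted within this contrast by itself (adjusted p = 1). The study chose *Spag4* as 1 of its autosomal spermatocyte genes for QPCR, and reports that QPCR bore out every array change it examined. The QPCR values were not read here.

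The other *Spag4* probes differed by 0.20 (interval -0.67 to 1.07, limma adjusted p = 0.870) and 0.085 (interval -0.33 to 0.50, adjusted p = 0.890) between the spermatocytes of the genotypes. *Sun5* was 0.56 higher in heterozygous spermatocytes, with no overlap of the groups, and was not called (interval 0.023 to 1.10, adjusted p = 0.202). *Sun2* was 0.38 higher (interval -0.016 to 0.77, adjusted p = 0.248), *Lmnb2* 0.25 higher (adjusted p = 0.672) and *Sun1* 0.24 lower (adjusted p = 0.685). In all, 2 of the 17 probes had an unadjusted p under 0.05, against 2.92% of all kept probes, and 6 did not overlap between the genotypes, against 22.8%.

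The mean of the 13 round spermatid markers was 10.37, 9.62 and 10.40 on the wild type spermatocyte arrays and 10.54 and 10.43 on the heterozygous ones. Wild type spermatocyte array 2 was the lowest, as it was for *Sun5* and for *Spag4* probes 360128 and 2680373. The median difference of these markers between the genotypes was 0.33, with none called, and its part in the *Spag4* and *Sun5* differences was not tested.

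**Figure D3:**
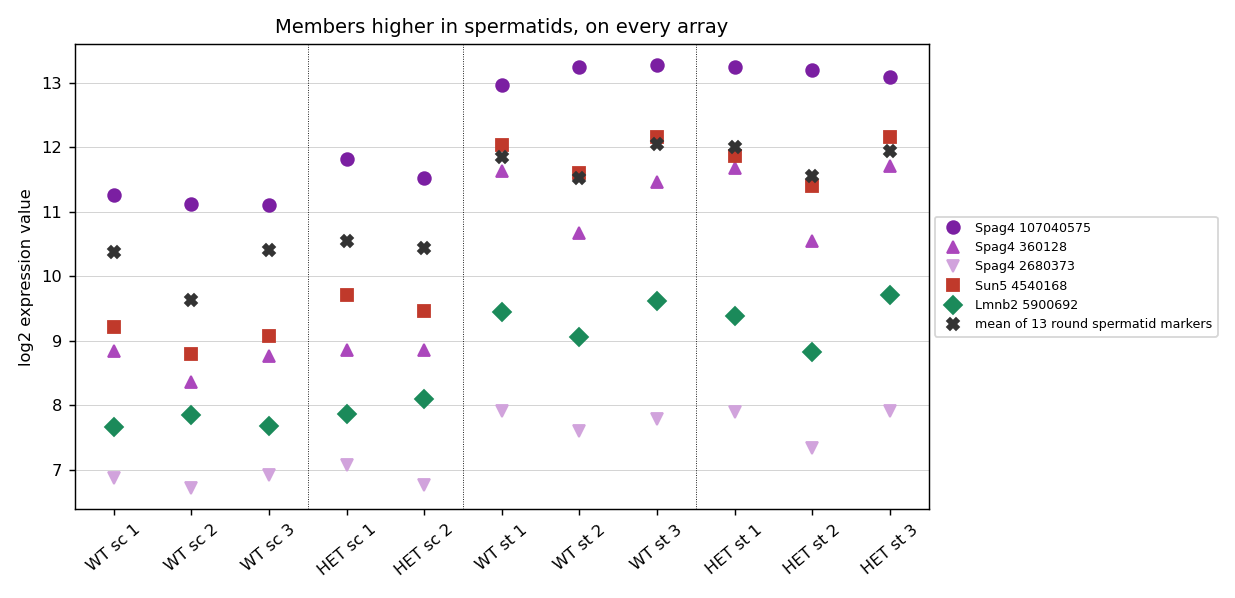
Log2 expression value (vertical axis) of the 5 member probes called higher in spermatids and the mean of 13 round spermatid markers (crosses) on each of the 11 arrays (horizontal axis; WT, wild type; HET, heterozygous; sc, spermatocytes; st, spermatids). The marker mean runs from 9.62 to 10.54 in spermatocytes and from 11.52 to 12.05 in spermatids, and both spermatid arrays numbered 2 are low for *Sun5*, *Lmnb2* and 2 of the *Spag4* probes.

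In spermatids none of the 17 probes was called between the genotypes, against 0.44% of all kept probes, and 1 had an unadjusted p under 0.05, against 5.17% of all. The differences ran from -0.20 (*Syne2*, interval -0.38 to -0.0096, limma adjusted p = 0.198) to 0.21 (*Lmnb1* probe 6020008, interval -0.17 to 0.59, adjusted p = 0.588). *Spag4* probe 107040575 differed by 0.018 (interval -0.22 to 0.26), *Sun5* by -0.12 (interval -0.60 to 0.36) and *Lmnb2* by -0.071 (interval -0.56 to 0.42). Only *Lmna* probe 3190167 did not overlap between the genotypes, against 9.48% of all kept probes, and it was 0.17 higher in heterozygous spermatids (adjusted p = 0.513). Without both spermatid arrays numbered 2, *Syne2* was called lower (-0.31, adjusted p = 0.0435), at levels close to the array's median and to the lowest kept mean.

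The test of whether the genotype difference itself differed between spermatids and spermatocytes called none of the 17 probes, against 0% of all kept probes. Only *Spag4* probe 107040575 had an unadjusted p under 0.05 among the members (difference -0.48, interval -0.85 to -0.12, limma adjusted p = 1), as had 566 of all 27986 probes. For *Sun5* the value was -0.68 (interval -1.41 to 0.038, limma adjusted p = 1) and for *Sun2* -0.45 (interval -0.98 to 0.077, adjusted p = 1). The calls of *Sun1* and *Sun2*, each made in 1 genotype only, were therefore not shown to differ between the genotypes.

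In order of their group means, *Spag4* probe 107040575 ran from wild type spermatocytes (11.16 ± 0.084, SD, n = 3) through heterozygous spermatocytes (11.66 ± 0.21, n = 2) to wild type spermatids (13.16 ± 0.17, n = 3) and heterozygous spermatids (13.17 ± 0.082, n = 3), of which the last pair did not differ beyond their spread. *Sun5* ran from wild type spermatocytes (9.02 ± 0.21) through heterozygous spermatocytes (9.58 ± 0.17) to heterozygous spermatids (11.81 ± 0.38) and wild type spermatids (11.93 ± 0.29), and the spermatids overlapped. *Lmnb2* ran in the same order as *Sun5*, at 7.73 ± 0.099, 7.98 ± 0.17, 9.30 ± 0.45 and 9.37 ± 0.28. *Sun1* ran from wild type spermatids (10.41 ± 0.18) and heterozygous spermatids (10.52 ± 0.47), which overlapped, to heterozygous spermatocytes (10.94 ± 0.16) and wild type spermatocytes (11.18 ± 0.12).

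Over the 11 arrays, which fall into 2 cell types on 2 chips, *Sun5* and *Lmnb2* correlated at 0.98, *Spag4* and *Sun5* at 0.98 and *Spag4* and *Lmnb2* at 0.93 (Pearson's r, highest-mean probe of each). *Sun1* and *Lmnb2* ran opposite, at -0.88. The probes of other named genes most like *Sun5* were those of *Odf3l1* (0.998), *Odf3* (0.998, a sperm tail outer dense fibre protein) and *4933402J07Rik* (0.997). Those most like *Spag4* were *1700109H08Rik* (0.994), *Prss54* (0.991) and *Vasp* (0.990). For *Lmna* probe 3190167, which was not called between the cell types in either genotype, the nearest were *Gorasp1* (0.940), *Urm1* (0.930) and *Clec18a* (0.929). These genes are the highest picked from all kept probes of other named genes over only 11 arrays. How high the best correlation runs for an unrelated probe was not tested, so the named genes are a description and not shown to be alike. For *Spag4* and *Sun5* the correlations also hold the difference between the cell types.

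Around the members, 5 lists of envelope and spermatid genes were read by their counts, with 1 probe a gene. These counts stand against the 11.5% of all kept probes called higher and the 15.5% called lower in the wild type, and the 8.65% and 9.15% in heterozygous cells, and no list was tested as a set. Of 20 LINC and inner nuclear membrane partners, all measured, 4 were called higher in wild type spermatids and 1 lower, with a median of 0.017 against -0.034 for all kept probes. *Nrm* (nurim, an inner membrane protein) rose by 2.43, *Lemd1* (a LEM domain protein) by 2.40, *Tor1aip1* (LAP1, which binds lamins) by 2.34 and *Emd* (emerin) by 2.08, while *Ankle2*, a LEM protein of envelope reassembly after mitosis, fell by 1.14. In heterozygous cells the same 4 were called higher, and *Ankle2* (-1.01) and *Lemd2* (-1.15) were called lower. *Lemd2* was lower in the wild type too, without a call (-0.92, limma adjusted p = 0.0535). *Lbr* had the lowest difference of the list in both genotypes, and was not called in either. It was -1.58 in the wild type (adjusted p = 0.0663) and -1.54 in the heterozygotes (adjusted p = 0.106). *Kash5*, the meiotic KASH partner of SUN1, differed by -0.075 in the wild type (limma adjusted p = 0.903).

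Of a list of 8 genes for meiotic telomere attachment 6 were measured, without *Majin* and *Speedya*. Of these, 4 were called lower in wild type spermatids and none higher, with a median of -0.93. The list also holds *Sycp3*, a synaptonemal complex gene, which differed by 0.013 in the wild type (limma adjusted p = 0.961). *Cdk2* fell by 2.14, *Terf2* by 1.08, *Terb2* by 0.78 and *Terf1* by 0.60. In heterozygous cells the median was -0.71, and only *Terb2* and *Terf2* were called lower. *Cdk2* (-1.61, limma adjusted p = 0.131), *Terb1* (-1.12, adjusted p = 0.266) and *Terf1* (-0.59, adjusted p = 0.0685) were lower there too, without a call. *Terb1* was also lower without a call in the wild type (-1.11, adjusted p = 0.209). TERB2 is part of the complex that joins telomeres to SUN1, and TERF1 and TERF2 bind telomeric DNA. Of 8 measured genes of lamin processing and lamin kinases, 3 were called lower and none higher, with a median of -0.45. *Rce1*, a protease that trims prenylated lamins, fell by 1.26, *Cdk1*, a kinase that phosphorylates lamins, by 1.22 and *Fnta*, the alpha subunit of farnesyltransferase, by 0.74, and none of the list was called in heterozygous cells.

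Of 12 measured genes of the spermatid head, manchette and head-tail coupling, 6 were called higher in wild type spermatids and 1 lower, with a median of 0.52. In heterozygous cells 4 were called higher. *Pmfbp1*, of the head-tail joint, rose by 2.51 in the wild type, *Spata46* by 2.30 and *Clip1*, a microtubule plus-end protein of the manchette, by 1.96. *Septin12*, of the sperm annulus, fell by 2.63 there (SE 0.66, limma adjusted p = 0.0343). In heterozygous cells *Septin12* differed by -2.46 without a call (SE 0.73, adjusted p = 0.0664). Of 19 measured nuclear pore genes 4 were called higher and 7 lower, with a median of -0.32. *Nup210* rose by 1.71, *Nup160* by 1.20 and *Nup50* by 0.86, and *Nup107* fell by 1.37, *Nup37* by 0.84 and *Nup155* by 0.82, so members of the same pore scaffold complex (*Nup107*, *Nup160*) lay on opposite sides. In heterozygous cells 3 pore genes were called higher and 3 lower. No gene of the 5 lists was called between the genotypes in either cell type.

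**Figure D4:**
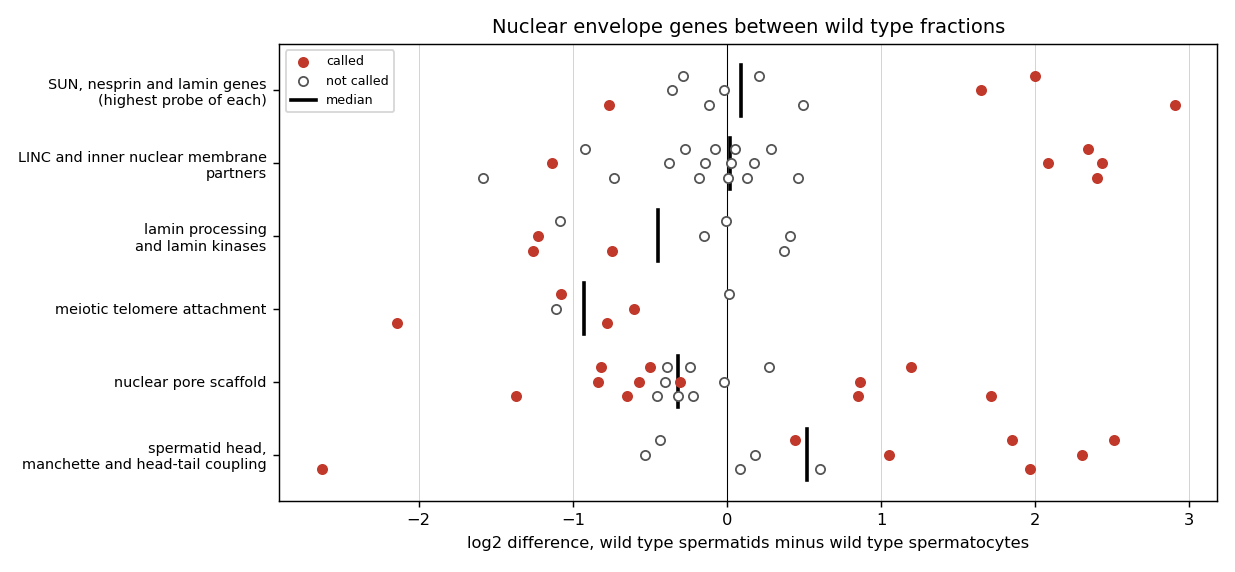
Log2 difference between wild type spermatids and wild type spermatocytes (horizontal axis) for the highest-mean kept probe of each gene, by list (rows), with the list's median as a bar and filled points for a limma adjusted p under 0.05. The telomere attachment genes have a median of -0.93 and the spermatid head, manchette and coupling genes a median of 0.52.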

How the data were processed

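The authors used BeadStudio and lumi, whose versions are not given in the sources used here. Per the paper's methods the mean of the negative controls was subtracted, a variance-stabilising transformation was applied, and the deposited log2 values were quantile normalised. A fold change is therefore 2 to the power of a difference on that scale. Bead signals and detection values were also deposited, in 22 columns that carry no sample label, and were not used. Arrays give no count of molecules, so their number limits the precision. Replicates were separate preparations, per the methods.

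Probes were named through the platform table, in which 32794 of 46643 probes have 1 symbol, 55 several and 13794 none. Probes in the lowest 40% by mean level were dropped (lowest kept mean 6.802), and limma 3.58.1 in R 4.3.3 was fitted with a mean per group over all 11 arrays, as in the methods. P-values were adjusted by Benjamini-Hochberg over all kept probes and the 4 contrasts together, the interaction by itself, and called under 0.05. Differences are heterozygous minus wild type (the study prints the opposite sign) and spermatid minus spermatocyte. The script was checked on simulated data. Alternatives were other filters, adjustments, priors, array weights (statmod 1.5.0), a further cyclic loess, gene means, replicate blocks and leaving out arrays. When 1 heterozygous spermatocyte array was left out, the other was assumed to vary like the other groups.

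All kept member probes are given, and dim ones by their range. In each of the 5 pathway lists up to 3 called genes per direction with the largest wild type difference were named, and the 3 genes most correlated with *Spag4*, *Sun5* and *Lmna*. *Emd*, *Lemd2*, *Lbr*, *Terb1*, *Terf1*, *Kash5*, *Sycp3* and the markers named as examples were added after their values were seen. The members and lists were chosen with earlier results of these data known. Promoters came from a RefSeq table of GRCm38.p6, and those of 9 of the 10 members were used. *Lmnb1*, the member on chromosome 18, was left out. Figures were drawn with Python 3.11.15 and matplotlib 3.10.9.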

Additional observations from a re-analysis of the deposited data

How the results depend on the processing

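No difference of a member probe changed sign while called: of 1680 values under the alternatives, 1629 kept their side of the threshold, 44 lost a call and 7 gained one. *Sun5*, *Lmnb2* and the 3 *Spag4* probes kept their wild type call in all 21 alternatives, *Sun1* lost it in 13 and *Lmna* probe 4210020 in 14. In heterozygotes the call was lost in 5 of 21 for *Spag4* probe 2680373, 3 for *Sun2* and 2 for *Lmnb2*, and leaving out 1 array gave counts of 4 to 6. In heterozygous against wild type spermatocytes the count of 1 became 0 with adjustment within each contrast, with trend and robust priors (*Spag4* adjusted p = 0.0627), with cyclic loess (0.46, adjusted p = 0.0586) and with the mean of a gene's probes (*Spag4* 0.26, adjusted p = 0.485), and leaving out 1 array gave 0 to 1. Without both spermatid arrays numbered 2, chosen after seeing the data, it was 2 (with *Sun5*, adjusted p = 0.0385), and the count in spermatids was 1 in place of 0. With gene means the wild type cell type count of 7 probes became 4 genes (3 higher, 1 lower), and with only the groups compared in the fit the heterozygous count of 6 became 3. Array weights called *Sun3* in the wild type (0.66, adjusted p = 0.0129).

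Arrays with the same replicate number did not all deviate together: correlations of their deviations were -0.256 to 0.329 over 15 pairs, and -0.503 to 0.379 over 30 pairs of different numbers. Those of wild type with heterozygous spermatid arrays were 0.285, 0.329 and 0.0613 for numbers 1 to 3. Deviations from a group mean cancel out within the group, so these correlations are not independent and cannot settle whether the numbers pair the samples. The main fit did not take the numbers as pairs. With the replicate block 1 member probe was called between the spermatocytes, *Sun5* (0.67, adjusted p = 0.0145) in place of *Spag4* (0.50, adjusted p = 0.0707), 0 between the spermatids, 5 and 6 between the cell types in wild type and heterozygotes, and 0 for the interaction. With the block within genotype the cell type counts were 5 and 6. Dim probes limit the nesprins: 7 of the 9 *Syne1* and *Syne2* probes were below the filter. The cause of these changes was not tested.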
